A study of Drosophila melanogaster with 6 samples.

Results

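Programmed cell death in Drosophila is set off by a small group of proteins that block the inhibitors of caspases, the proteases that dismantle a dying cell. The activators rpr, hid, grim and skl encode such proteins. They bind Diap1, the inhibitor that holds the initiator caspase Dronc and the effector caspases Drice and Dcp-1 in check. Dark, the fly relative of Apaf-1, assembles Dronc into its active complex, and p53 is a transcription factor that can switch on activator genes after DNA damage. In the embryo these genes act in the removal of surplus cells, for example in the nervous system and the head.

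The 10 genes named in that account were looked up among the probe sets of an Affymetrix 3' expression array, taking probe sets that the platform annotation assigns to exactly 1 gene. Of the 10 genes, 6 had such a probe set, and together they had 8 probe sets of 18769 tested. These were grim, skl, Dronc, Dcp-1, Dark and p53, with a pair of probe sets each for Dark and p53. No probe set named rpr, hid, Drice or Diap1 alone, and these 4 genes were not analysed here. In the RefSeq order of protein-coding genes, rpr lies directly between grim and skl.

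RNA came from whole Drosophila melanogaster embryos of stages 11 to 16. They had been kept at 25 C and passed through a COPAS biosorter, an instrument that sorts embryos. In the Sage group (3 arrays) a UAS-Sage transgene was driven by tub-Gal4, which is active in most cells, so that Sage, a helix-loop-helix factor of the embryonic salivary gland, was supplied to most cells of the embryo. The control group (3 arrays) was the tub-Gal4 strain alone, so both groups carry the driver, and the labels call them matched for age. Nothing in the labels ties the arrays of a group to separate egg collections. The p-values therefore rest on the spread between arrays, part or all of which may be technical. Whole embryos were profiled, so fewer cells of a type and less RNA per cell cannot be told apart. The number of arrays limits the precision.

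The deposited values are log2 signals, on which 1 unit is a doubling, and each difference was taken within a probe set. Levels of different probe sets were used to rank them by brightness, and were averaged over the marker lists. The sage transcript had 12.39, 12.52 and 12.50 on the Sage arrays, against 7.38, 7.50 and 7.66 on the control arrays, and so followed the labels. The control arrays were less alike than the Sage arrays. Across probe sets, which do not count as replicates, Pearson's r was 0.989 to 0.996 among the Sage arrays, and between control replicates it was as low as 0.938 (1 against 3). With the Sage arrays, r was 0.962 to 0.972 for control replicate 1, 0.954 to 0.964 for control replicate 2 and 0.895 to 0.904 for control replicate 3. The hybridisation control BioB, which is added to the sample and does not come from the embryo, had 8.70, 8.97 and 8.95 on the Sage arrays, against 7.51, 7.36 and 7.66 on the control arrays. That gap follows the groups in an RNA that the embryos did not supply, so array handling and genotype cannot be told apart in the gene differences given here.

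The comparison asked which of the cell death genes differed when Sage was made throughout the embryo. Dronc, Dcp-1 and 1 of the p53 probe sets were lower with Sage, by 2.68-fold, 2.16-fold and 2.26-fold. The activators grim and skl and the adaptor gene Dark did not pass the test in either direction. Over all 18769 probe sets, an adjusted p under 0.05 by limma was reached by 9.45% as lower and 4.25% as higher with Sage. Among the 8 cell death probe sets, 3 were lower and 0 higher by limma. The skl probe set was higher at an unadjusted p of 0.0162 by limma. The share of all probe sets that reach an unadjusted p under 0.05 was not counted, so nothing is drawn from this. Of the 8, 4 lay wholly below the control arrays and 1 wholly above, while 18.1% and 16.6% of all probe sets did so (34.7% in either direction). An exact permutation test of such a separation gives p = 0.1, the smallest that 3 arrays against 3 allow.

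**Figure D1:**
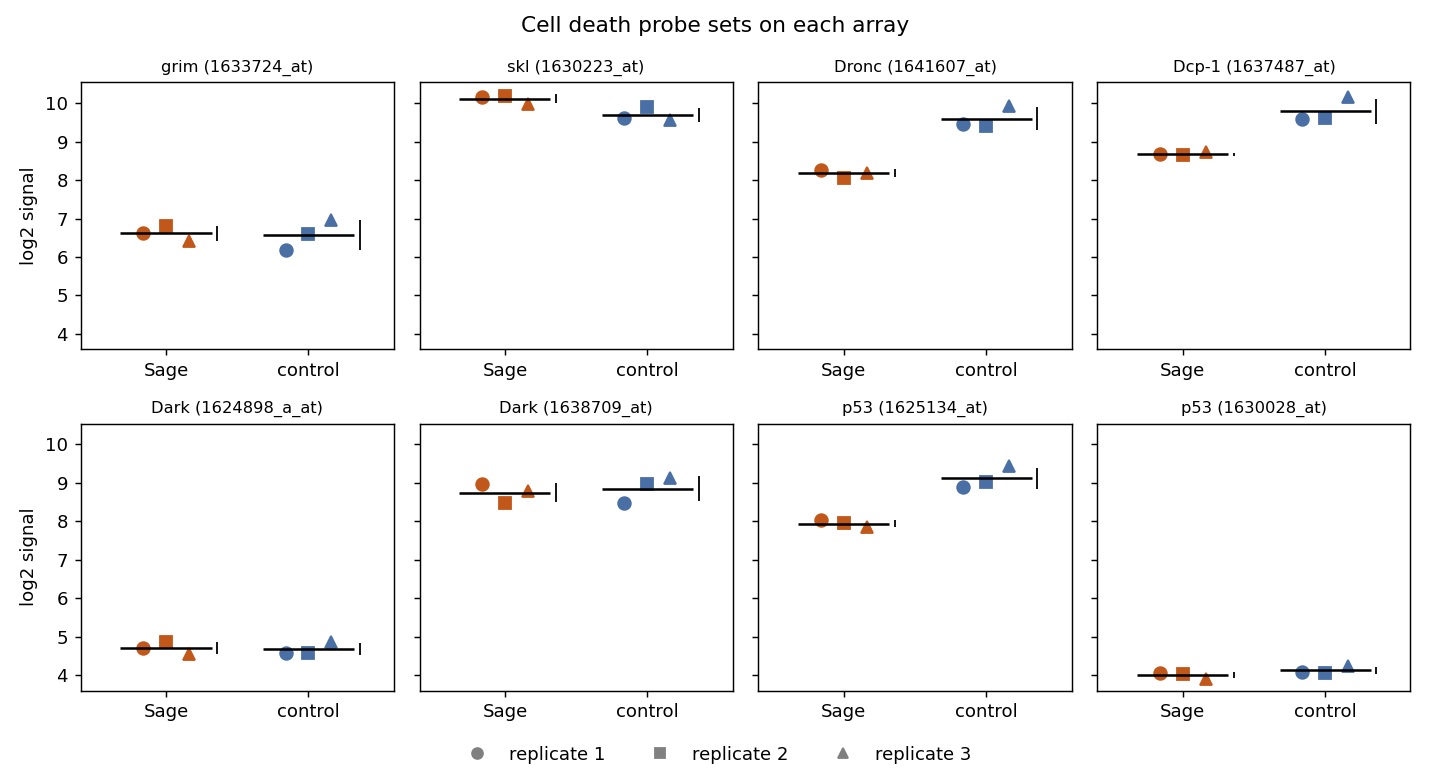
Log2 signal (vertical axis, the same in every panel) of the 8 cell death probe sets on each of the 3 Sage arrays (left) and 3 control arrays (right). Horizontal lines are group means, vertical lines ± 1 SD, and symbols give the replicate number. Dronc, Dcp-1 and both p53 probe sets sit below all control arrays, the dimmer p53 probe set by little, while grim and Dark overlap.

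Among the activators, grim had a log2 signal of 6.62, 6.81 and 6.42 on the Sage arrays, against 6.18, 6.59 and 6.96 on the control arrays. The Sage values lay inside the range of the controls. The difference was 0.04 (SE 0.22, 95% interval -0.49 to 0.57, adjusted p = 0.941 by limma). With 3 arrays a group, a true difference within this interval is not excluded. The sign of the small measured difference turned under 6 of the 14 alternative settings tried.

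skl, which encodes the activator known as sickle, had 10.16, 10.19 and 9.98 on the Sage arrays, against 9.63, 9.91 and 9.57 on the control arrays. Every Sage value was above every control value, by a small margin over control replicate 2. The mean was 10.11 ± 0.11 with Sage and 9.70 ± 0.19 in the controls (SD, n = 3 each). The difference of 0.41 (SE 0.12, 95% interval 0.11 to 0.71) did not pass (adjusted p = 0.0894 by limma), nor did it under any of the 14 alternatives. It was smaller with array weights (0.125) and with gene-by-gene array weights (0.213). The array weights came from an estimate that had not converged. They gave control replicate 2, the control array nearest to Sage for skl, a weight of 32. The 4 protein-coding genes that lie between hid and grim in the RefSeq order were measured as well. Of these, CheA75a, of the CheA family, was higher with Sage (difference 0.55, adjusted p = 0.0142 by limma), at a mean of 5.90 ± 0.10 with Sage and 5.35 ± 0.10 in the controls (SD, n = 3 each). CG7320, CG5103 and CG13700 did not pass, with differences of 0.06, -0.19 and 0.01. These neighbours were looked at after the values of grim and skl were known.

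Dronc, the initiator caspase, had 8.27, 8.06 and 8.20 on the Sage arrays, against 9.45, 9.41 and 9.93 on the control arrays. The groups were more than 1 unit apart at their nearest values. The mean was 8.17 ± 0.10 with Sage and 9.60 ± 0.29 in the controls (SD, n = 3 each). The difference was -1.42 (SE 0.16, 95% interval -1.82 to -1.03, adjusted p = 0.00377 by limma), and it passed under all 14 alternatives.

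Dcp-1, an effector caspase that acts downstream of Dronc, had 8.67, 8.64 and 8.72 on the Sage arrays, against 9.59, 9.61 and 10.17 on the control arrays. The Sage arrays agreed closely (8.68 ± 0.04, SD, n = 3), and the controls were spread by control replicate 3 (9.79 ± 0.33, SD, n = 3). The difference was -1.11 (SE 0.17, 95% interval -1.53 to -0.69, adjusted p = 0.0104 by limma). The call did not hold without Sage replicate 3 (difference -1.13, adjusted p = 0.0526), which left 2 of the 8 probe sets called, or with no moderation of the variance (adjusted p = 0.0552).

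Dark, which joins Dronc in the apoptosome, was read by a bright and a dim probe set. The bright one had 8.97, 8.48 and 8.78 on the Sage arrays, against 8.48, 8.97 and 9.12 on the control arrays. The groups overlapped almost entirely, with a difference of -0.11 (SE 0.21, 95% interval -0.62 to 0.40, adjusted p = 0.806 by limma). The dim one had 4.71, 4.86 and 4.56 on the Sage arrays, against 4.59, 4.59 and 4.87 on the control arrays, and also overlapped (difference 0.03, adjusted p = 0.922 by limma). A true difference in Dark within the interval of the bright probe set is not excluded with 3 arrays a group.

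p53 was also read by a pair of probe sets, and they differed in brightness and in size of difference. The bright one had 8.03, 7.95 and 7.85 on the Sage arrays, against 8.90, 9.02 and 9.43 on the control arrays, with no overlap. Its mean was 7.94 ± 0.09 with Sage and 9.12 ± 0.28 in the controls (SD, n = 3 each). The difference was -1.18 (SE 0.15, 95% interval -1.55 to -0.80, adjusted p = 0.00609 by limma) and passed under all 14 alternatives. The dim one had 4.05, 4.03 and 3.91 on the Sage arrays, against 4.09, 4.07 and 4.23 on the control arrays. It too lay below the controls on every Sage array, but by little, and did not pass (difference -0.13, SE 0.09, adjusted p = 0.413 by limma). Its mean level stood at the 3.26th percentile of all probe sets, where the RMA method compresses differences, and the dim Dark probe set stood at the 23.4th. Whether low signal accounts for the smaller difference of the dim p53 probe set was not tested.

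The 6 brighter probe sets lay above the median level of all probe sets. Among all probe sets above that level, 18% were lower with Sage and 7.04% higher, and the 3 of 6 is to be read against these shares.

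Since the controls differed among themselves, the mean of the 3 Sage arrays was also compared with each control array. For Dronc the Sage mean was lower than control replicates 1, 2 and 3, with differences of -1.28, -1.24 and -1.76. For Dcp-1 the differences were -0.91, -0.93 and -1.50, and for the bright p53 probe set -0.96, -1.08 and -1.49. In these genes every control array stood apart from Sage by many times the SD of the Sage arrays, and control replicate 3 stood furthest. A Sage mean over 1.5-fold below every control array was found for these 3 of the 8 probe sets and for 7.8% of all probe sets.

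Among the other members, grim and Dark depended on which control array was used. The grim difference was 0.44, 0.03 and -0.34 against control replicates 1, 2 and 3, and that of the bright Dark probe set 0.26, -0.22 and -0.37. The sign therefore changed with the control array for both genes. skl was higher with Sage against each one, by 0.49, 0.20 and 0.55. Control replicate 3 was the highest of the controls for 7 of the 8 cell death probe sets, skl being the exception, and for 57.7% of all probe sets.

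**Figure D2:**
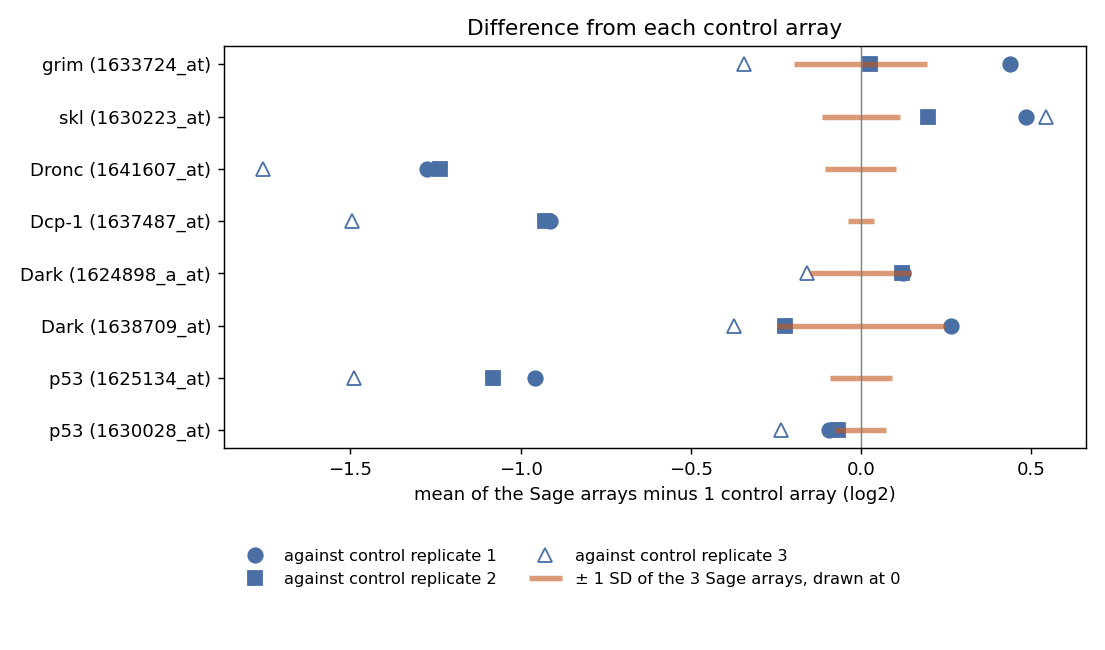
Mean of the 3 Sage arrays minus 1 control array (log2, horizontal axis) for the 8 cell death probe sets. Symbols give the control replicate, and the bar at 0 spans ± 1 SD of the 3 Sage arrays. Dronc, Dcp-1 and both p53 probe sets lie left of 0 against every control array, the dim p53 probe set by little. The grim probe set and both Dark probe sets lie on both sides.

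By a rule of least Euclidean distance over the 6 arrays, after each probe set was centred on its own mean, the patterns most like Dronc were those of Atu, CG33332 and ash2, a subunit of a histone methyltransferase complex. Their distances were 0.061, 0.081 and 0.089 log2 units. The patterns most like Dcp-1 were those of hang, CG3918 and CG2100 (0.072, 0.096 and 0.109), and those most like p53 were of CG2790, CG11560 and mod(mdg4) (0.098, 0.119 and 0.130). Such neighbours were common, since 364, 638 and 561 probe sets of other named genes lay within 0.5 of Dronc, Dcp-1 and p53.

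Other genes of cell death and allied processes were counted from 8 lists, with 1 probe set a gene, that of the highest mean. Of 65 measured of 75 listed, 16 fell and 3 rose, which is 24.6% and 4.62%, against 12.2% and 5.6% of all 11982 named genes. The median difference was -0.11 over the 65 genes and 0.01 over all genes. The lists were chosen with earlier results of these data known, and nothing particular to them is drawn from these shares. The counts within single lists given below are to be read against the same shares of all named genes.

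**Figure D3:**
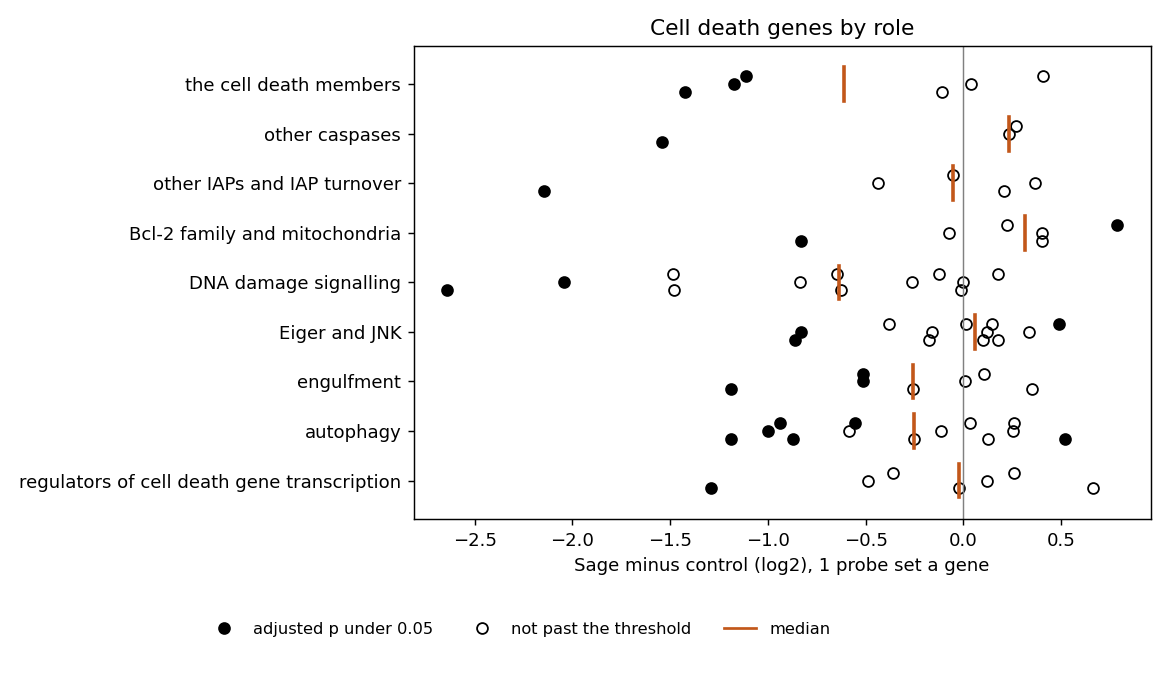
Sage minus control (log2, horizontal axis) of each measured gene, by list. Filled circles passed an adjusted p under 0.05, open circles did not, and the vertical bars are list medians. The falls reach -2.64 (mre11), and the highest value is the rise of Drp1 at 0.79.

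Of 3 other caspases measured, Strica, which has a long prodomain, fell. It had 5.86, 5.79 and 6.0 on the Sage arrays, against 7.21, 7.32 and 7.74 on the control arrays, a 2.91-fold fall (difference -1.54, SE 0.16, adjusted p = 0.00275 by limma). The remaining caspases, Dredd, of the immune Imd pathway, and Damm, did not pass, with differences of 0.27 and 0.24.

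Of 5 genes of other inhibitor of apoptosis proteins and their turnover, Det fell and 4 did not pass. Det encodes Deterin, the fly relative of survivin. It had 7.95, 7.43 and 7.73 on the Sage arrays, against 9.62, 9.61 and 10.31 on the control arrays. The groups were well apart, and the fall was 4.43-fold (difference -2.15, SE 0.24, adjusted p = 0.00342 by limma). Diap2, a relative of Diap1, had a difference of -0.05 with an interval from -0.30 to 0.19.

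Of 6 genes of the Bcl-2 family and of mitochondrial dynamics, 1 rose and 1 fell. Drp1, a GTPase of mitochondrial fission, had 9.39, 9.40 and 9.30 on the Sage arrays, against 8.47, 8.60 and 8.66 on the control arrays. It was higher on every Sage array (difference 0.79, SE 0.08, adjusted p = 0.00308 by limma). Pink1, a kinase of mitochondrial quality control, fell 1.78-fold (adjusted p = 0.00252 by limma). The Bcl-2 relatives Debcl and Buffy both had differences of 0.40, with control SDs of 0.48, and did not pass.

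Of 12 DNA damage genes, 2 fell and 10 did not pass. mre11, a nuclease of the double-strand break complex, had 6.97, 6.08 and 6.57 on the Sage arrays, against 9.05, 8.89 and 9.61 on the control arrays. This was a 6.23-fold fall (difference -2.64, SE 0.29, adjusted p = 0.00324 by limma). mus304, the fly relative of ATRIP, fell 4.11-fold (adjusted p = 0.00797 by limma), a call lost with no moderation of the variance (adjusted p = 0.0532). lok, the Chk2 kinase that acts on p53 and is named here after its values were seen, had a difference of -1.48. It did not pass (adjusted p = 0.086 by limma), with a control SD of 0.92 and differences of -0.80, -1.12 and -2.53 against control replicates 1, 2 and 3.

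Of 12 genes of Eiger and JNK signalling, a stress pathway that can induce death, msn and Traf6 fell and wgn rose. The kinase gene msn fell 1.78-fold (adjusted p = 0.00303 by limma) and the adaptor gene Traf6 fell 1.81-fold (adjusted p = 0.00655 by limma). wgn, an Eiger receptor gene, rose by a difference of 0.49 (adjusted p = 0.0303 by limma). That call was lost under 8 of the 14 alternatives, among them leaving out control replicate 2 or any Sage replicate (adjusted p from 0.089 to 0.119). The ligand gene egr had a difference of -0.18, and puc, a transcriptional target of the pathway, had 0.10, and neither passed.

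Of 7 engulfment genes, by which dead cells are cleared, 3 fell and 4 did not pass. ced-6, an adaptor of the receptor Draper, had 9.35, 9.73 and 9.39 on the Sage arrays, against 10.70, 10.56 and 10.80 on the control arrays (2.28-fold, adjusted p = 0.00355 by limma). prtp, which encodes a Draper ligand, fell 1.43-fold (adjusted p = 0.0101 by limma), a call lost with the replicate block (adjusted p = 0.0658) and without Sage replicate 3 (0.0605). Ced-12, the relative of ELMO, also fell 1.43-fold (adjusted p = 0.0461 by limma). That call was lost under 9 of the 14 alternatives, among them leaving out control replicate 2 or 3 or any Sage replicate (adjusted p from 0.0708 to 0.171). The receptor genes drpr and crq did not pass, with differences of 0.35 and 0.11.

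Of 13 autophagy genes, 5 fell, 1 rose and 7 did not pass. Atg5 had 7.92, 7.89 and 7.87 on the Sage arrays, against 8.85, 8.81 and 8.83 on the control arrays and lay below them by far more than the spread of either group. It fell 1.92-fold (difference -0.94, SE 0.07, adjusted p = 0.00125 by limma). Atg16 and Atg7, which like Atg5 serve the conjugation step that builds the autophagosome, fell 1.83-fold and 1.47-fold. Atg17, of the initiating kinase complex, fell 2.0-fold, and ref(2)P, the relative of the cargo receptor p62, fell 2.28-fold. Atg12, the protein to which Atg5 is joined, rose by 0.52 (adjusted p = 0.0258 by limma). That call was lost under 9 of the 14 alternatives, among them leaving out control replicate 1 or 2 or any Sage replicate (adjusted p from 0.0544 to 0.0937). The Atg7 call was lost with the replicate block (adjusted p = 0.0533).

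Of 7 genes listed as regulators of the transcription of cell death genes, Stat92E, the JAK/STAT factor, fell 2.45-fold and 6 did not pass. It had 9.90, 9.30 and 9.86 on the Sage arrays, against 10.88, 10.89 and 11.17 on the control arrays (adjusted p = 0.0088 by limma). That call was lost with no moderation of the variance (adjusted p = 0.0525). The Hox gene Dfd, which acts on rpr in the head, had a difference of 0.26. EcR, the ecdysone receptor gene, had -0.49 and Eip93F, a late ecdysone response gene, had -0.02, and none of the 3 passed.

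Markers of other tissues and of embryo age moved with the groups and among the control arrays. The marker counts are to be read against all named genes, of which 12.2% fell and 5.6% rose. Of 11 measured maternal and germline genes, 7 fell and 4 did not pass, with a median difference of -3.78. The mean log2 signal of this list ranged from 5.59 to 6.08 on the Sage arrays and from 8.37 to 9.18 on the control arrays, with control replicate 3 highest. Late epidermis genes had means of 9.56 to 9.85 on the Sage arrays and 7.24 to 8.96 on the control arrays, 3 of 10 having risen, with control replicate 3 lowest. exu and png, of the maternal list, and ple, of the late epidermis list, lay below 6 on all arrays.

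Muscle markers averaged 11.62 to 11.68 on the Sage arrays and 8.91 to 11.81 on the control arrays. Neuronal markers averaged 8.26 to 8.51 on the Sage arrays and 6.74 to 8.40 on the control arrays. The genes of both lists did not pass by limma. Of the 5 neuronal genes, 3 had positive and 2 negative differences. elav alone had an unadjusted p under 0.05 by limma, with a difference of -0.58. Unlike the mean of its list, elav was highest on control replicate 3 (11.1, against 10.40 and 10.72 on control replicates 1 and 2). The mean over glial markers was 8.17 to 8.31 with Sage and 7.65 to 8.05 in the controls, and 1 of 5 had risen. gcm and sli had differences of -0.11 and -0.01, but sli lay below 6 on all arrays. The mean over hemocyte markers was 8.29 to 8.30 with Sage and 7.80 to 7.96 in the controls. Of the 8 hemocyte markers 2 had risen, and srp and NimC4 had differences of -0.45 and -0.26 that did not pass. Hml and He, of the same list, lay below 6 on all arrays. Salivary gland markers averaged 9.20 to 9.32 with Sage and 7.31 to 8.18 in the controls, with 3 of 7 having risen. That mean includes sage, the gene of the transgene itself, at a difference of 4.96, so part of the gap was set by the design. PH4alphaSG1 and PH4alphaSG2 also rose, by 2.10 and 1.73. The remaining 4 did not pass, with differences of 1.78 (sens), 0.12 (fkh), -0.20 (eyg) and -0.30 (hkb). The part of these tissues and of embryo age in the differences of Dronc, Dcp-1, p53 and the listed genes was not tested. Without control replicate 3 the differences of Dronc, Dcp-1 and p53 were -1.26, -0.92 and -1.02, and all 3 passed. This omission does not test the part of embryo age. The maternal and germline mean was still 8.46 and 8.37 on control replicates 1 and 2, above all Sage arrays.

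**Figure D4:**
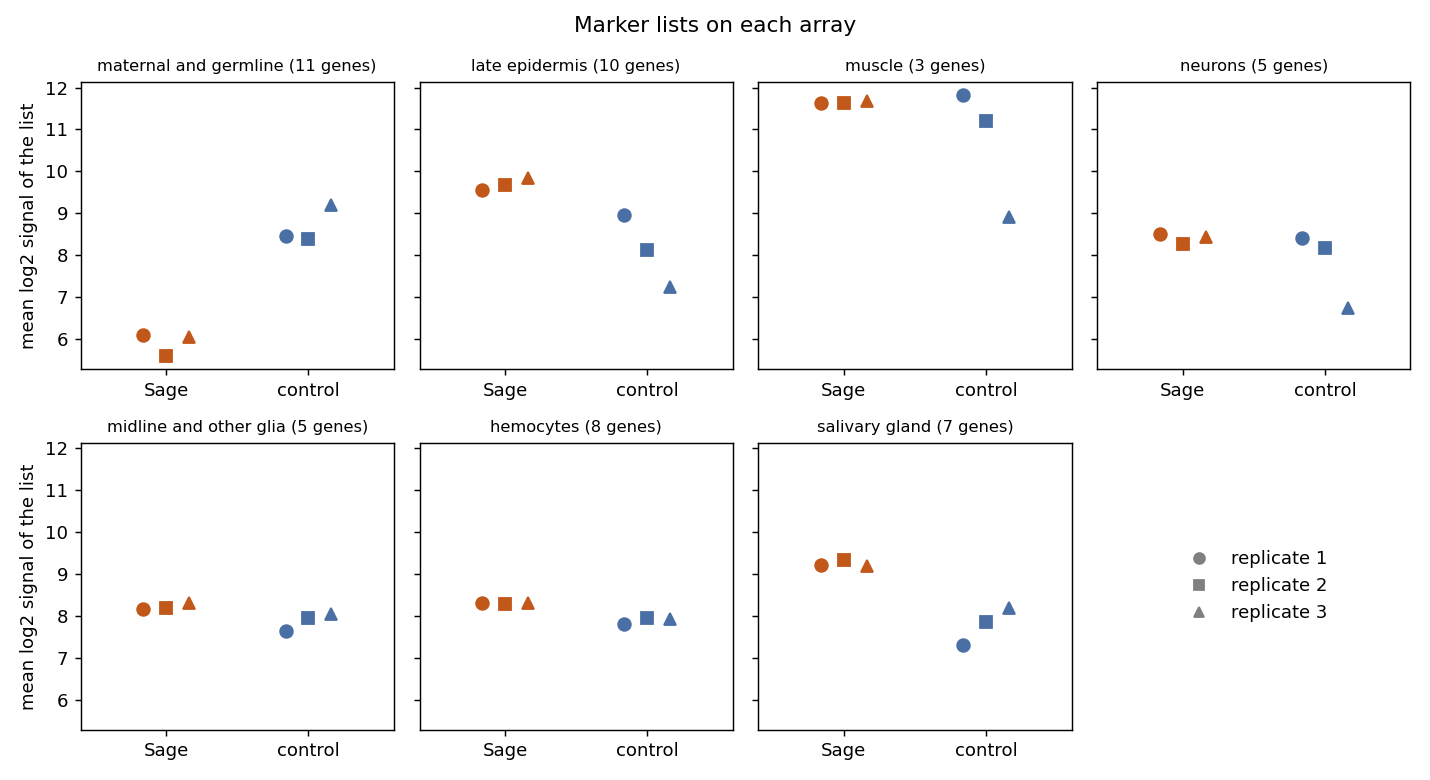
Mean log2 signal of each marker list (vertical axis, the same in every panel) on the 3 Sage arrays (left) and 3 control arrays (right). Symbols give the replicate number. The maternal and germline mean is lower on all Sage arrays, and the muscle, neuronal and late epidermis means are lowest on control replicate 3. Single genes can differ from the mean of their list, as elav does among the neuronal markers.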

How the data were processed

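The deposited file holds 1 log2 signal for each probe set on each of 6 arrays, and every column was used. Per the submitters' processing notes, RMA and Partek were used, and no version is given. RMA equalises the arrays and compresses differences near background, so a change in total RNA cannot be seen. Per the labels' protocols, RNA was labelled with a 3' IVT kit. Scan dates and the authors' test are not given in the sources used here.

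The table lists 18952 probe sets, of which the 183 for control RNAs were not tested. Symbols were updated through Entrez identifiers to RefSeq Release 6, and 13647 probe sets named 1 gene, 402 named several and 4720 named none. A gene whose own symbol is in the list was taken, so betaTub60D, CtsL1 and DCP1, which carry a member's name as a synonym, were not.

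limma 3.58.1 (R 4.3.3; lmFit and eBayes) compared the groups two-sided (Sage minus control) without covariates or filters, and Benjamini-Hochberg adjustment over all 18769 probe sets at 0.05. The procedure was tested on simulated data with independent noise for each probe set. No simulated array departed as a whole, so that test does not bear on the departure of control replicate 3. Figures used matplotlib 3.10.9. Same-numbered arrays did not deviate together (correlations of -0.13, -0.07 and -0.25), so the replicate block is an alternative. The members, lists and alternatives were chosen with earlier results of these data known. Named are the members, list genes past the threshold, sage and the 3 most similar patterns. Other genes named (the list genes that did not pass, lok and the neighbours of grim) were named after their values were seen.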

Additional observations from a re-analysis of the deposited data

How the results depend on the processing

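Among the 8 cell death probe sets, 3 were lower and 0 higher under every alternative, except that 2 were lower without Sage replicate 3 and with no moderation, where Dcp-1 missed the threshold. Differences that turned sign were all small and far from the threshold. For grim (0.04 as reported) they were -0.157 without control replicate 1 (0.233 being the highest with 1 array left out), -0.055 without Sage replicate 2, -0.0489 after quantile normalization, -0.0507 with arrays centred on their medians, -0.0924 with array weights and -0.0126 with gene-by-gene weights. For the dim Dark probe set (0.03 as reported) they were -0.0175, -0.0169 and -0.0457 without control replicates 1 and 2 and Sage replicate 2 (0.122 being the highest with 1 array left out), and -0.0625 with centring. For the bright Dark probe set (-0.11 as reported) they were 0.0212, 0.021 and 0.000774 without control replicate 3, without Sage replicate 2 and after quantile normalization (-0.297 being the lowest with 1 array left out).

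Over all probe sets, 797 were higher and 1774 lower. Leaving out 1 array gave 266 to 1276 higher and 934 to 2035 lower. The replicate block gave 341 and 1057, no moderation 353 and 1026, array weights 4869 and 4922, and gene-by-gene weights, added after seeing the data, 2243 and 2771. The array weights estimate stopped before it converged. The pathway genes that rose numbered 3 as reported and 1 with the replicate block, with centring, with a trended and robust prior and with no moderation, 11 with array weights, and 1 to 4 with 1 array left out. Those that fell numbered 16, 31 with array weights, 22 with gene-by-gene weights, 13 with the replicate block and with no moderation, and 14 to 20 with 1 array left out. The replicate block changed no call among the cell death probe sets, but ended those of prtp, wgn, Ced-12, Atg7 and Atg12, and no moderation ended those of Dcp-1, mus304, Stat92E, wgn, Ced-12 and Atg12. The cause of these changes was not tested. Dim probe sets, here 1 each of Dark and p53, limit what can be said of those readings.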
